A study of Mus musculus with 2 samples.

Results

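The cells described here are the barcodes that the deposited cell annotation calls Neural in 2 libraries of single cells from the mouse tibialis anterior, the muscle that lifts the foot. They numbered 9 of the 3494 barcodes with a cell type at day 2 after injury and 44 of 3385 at day 7, or 53 of 6879 in all. Every mouse was C57Bl/6 and had received notexin, a snake venom toxin that destroys muscle fibres, so both libraries come from injured muscle and there is no uninjured control among them. Whole muscle was dissociated and each time point is 1 library from 1 mouse, made with the droplet-based Chromium v3 kit. The sample labels give 7 months of age and sex F for both mice, whereas the annotation table gives male mice of 4 months at day 2 and 7 months at day 7. Over all called barcodes Xist, the transcript of the inactive X chromosome, had 5 and 1 counts, and 4 genes of the Y chromosome (Uty, Ddx3y, Eif2s3y and Kdm5d) had 6575 and 4856, which goes against the label F. Time, mouse and possibly age therefore cannot be told apart, and no difference between the days has a replicate check.

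Schwann cells are the glia of peripheral nerve, and a whole-muscle dissociation contains those of the intramuscular nerves. A myelinating Schwann cell wraps 1 large axon in compact myelin and makes the myelin proteins and their lipids in bulk under the transcription factors Sox10 and Egr2. A non-myelinating (Remak) Schwann cell holds several small axons in troughs, keeps adhesion molecules such as Ncam1 and L1cam and the neurotrophin receptor Ngfr, and makes little myelin protein. After nerve damage both kinds can lower myelin genes and take up a repair state marked by Jun, Gdnf and Sox2.

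The 9 day 2 cells held 65883 transcript counts (unique molecular identifiers) in sum, from 2025 to 13469 per cell with a median of 6977. The 44 day 7 cells held 217816, from 1060 to 16602 with a median of 3255. Levels are given as CPM of the cells' summed counts (1000 CPM is 1 count in every 1000), and intervals in parentheses are 95% intervals that cover counting error only, since cells of 1 library are not replicates. A gene is called different between 2 sums when it differs at least 2-fold and the interval of the ratio excludes 1, among genes with at least 10 counts over both sums; a sum of 0 is set to 3 counts. No barcode was shared between the members of the 2 libraries, although 4 of all called barcodes were.

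The Neural label was checked against its markers. Sox10, the transcription factor of the whole Schwann lineage (chromosome 15, 79154908 to 79165240, minus strand, GRCm38), had 85 counts in 33 of the 44 day 7 cells, or 390.2 CPM, against 0.289 CPM over all other annotated day 7 barcodes. In the day 2 cells it had 8 counts in 4 of 9. Cdh19, a glial cadherin, had 63 counts in 21 cells at day 7 and 9 counts in 4 at day 2. S100b, a calcium-binding protein of glia, had 148 counts in 35 cells at day 7 and 3 counts in 1 cell at day 2. Over a list of 12 Schwann lineage genes the median log2 ratio to the other day 7 barcodes was 7.43. Each of the 53 cells held at least 2 counts over the list, but so did 76.2% of day 7 FAPs (Pro-remodeling), so that count does not set the cells apart. Cryab, a small heat shock protein in the list, was not specific, as Type IIx myonuclei held it at 2315 CPM, and it gave 188 of the 327 day 2 counts.

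The label Neural reads as glial in these data. Over a list of 12 neuronal genes, the neural barcodes held 3 counts at day 2 and 8 at day 7, and Snap25, Rbfox3, Syt1, Nefl, Nefm and Chat were at 0 in both. Melanocyte genes, the mark of another neural crest lineage, summed to 0 and 7 counts with Dct, Mlana, Tyr and Tyrp1 at 0. Perineurial genes summed to 4 and 33, of which Itgb4, which Schwann cells also express, gave 1 and 24, and the endoneurial fibroblast genes Sox9, Wif1, Osr2 and Pdgfra were at 0 at each time point, with 0 and 45 counts over that whole list. Genes with the largest ratio to other day 7 barcodes, which the annotation itself rests on, included Mal, a raft proteolipid of myelin, at 1024 against 0.0722 CPM. They also included Kcna1, a voltage-gated potassium channel subunit, at 978 against 0.108 CPM and Gldn, the nodal protein gliomedin, at 358 against 0.253 CPM.

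Of the 44 day 7 cells, 6 also held at least 20 counts over the marker list of another cell type, and none of the 9 day 2 cells did. The cell with 3076 counts held 390 counts of myofibre genes, cells with 7878 and 2739 counts held 157 and 28 immune counts, and a cell with 5716 held 58 counts of fibro-adipogenic genes. Cells with 15039 and 16602 counts held 85 and 62 endothelial counts, and the latter also 26 smooth muscle and 31 myogenic counts. Myofibre genes made up 22908 CPM of the RNA in near-empty day 7 droplets and 599.9 CPM at day 2. Whether these 6 barcodes are doublets or cells with free RNA was not tested. Calls between the day 7 cells that depended on them are given with the values without them for some of the genes described.

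The annotation does not hold every glial barcode of the libraries. A barcode was counted as glial here when it held at least 3 counts from at least 2 of 4 Schwann lineage genes, Sox10, Cdh19 and S100b among them, a criterion set after the data were seen. At day 2, 25 such barcodes were labelled Neural or absent from the annotation table, and 20 of the 25 (80%) were absent from it. At day 7 the numbers were 51 and 9 (17.6%). The absent day 2 barcodes were not poor libraries, as 19 of the 20 met the quality limits of the study (750 genes or more, 1000 transcripts or more and no more than 30% mitochondrial), with a median of 8814 counts. Their myelin gene counts, over the list described below, had a median of 12.8 per 1000 counts of a cell, against 1.97 in the 9 labelled cells. A further 5 day 7 barcodes passed the criterion under another label, 3 as FAPs (Pro-remodeling), 1 as FAPs (Adipogenic) and 1 as Smooth Muscle. Of the labelled cells, 5 of 9 at day 2 and 42 of 44 at day 7 met the criterion themselves, so the labelled day 2 cells and the 25 barcodes share 5 cells. The 25 and 51 barcodes, Neural or absent from the table, are called the extended glial set below, and the 5 day 7 barcodes under another label are not in it.

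**Figure D1:**
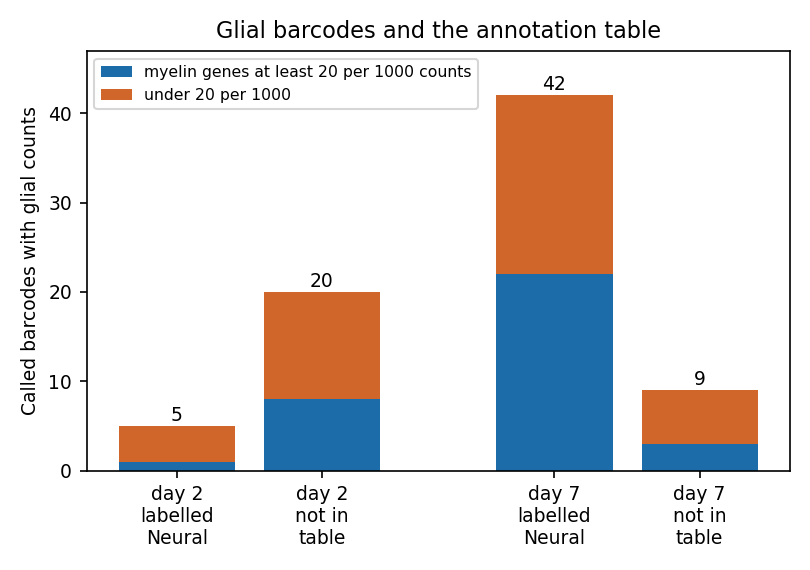
Number of called barcodes that met the glial criterion in each library, split by whether the annotation table labels them Neural or does not hold them. Bar colours give barcodes with at least 20 or under 20 myelin gene counts per 1000. At day 2, 20 of 25 were not in the table, and 8 of those 20 were at or over 20 per 1000.

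The share of Neural barcodes among annotated cells was 0.258% (0.118% to 0.488%) in the day 2 library. In the day 7 library it was 1.30% (0.946% to 1.74%), which is 1.04 percentage points higher (0.620 to 1.51). The extended glial set was a share of the called barcodes of 0.517% (0.335% to 0.762%) and 1.04% (0.778% to 1.37%), a difference of 0.526 points (0.165 to 0.900). The direction was the same on both bases. Both shares also depend on how many immune cells each library held: over types other than immune and erythroid cells the Neural share was 0.964% (0.442% to 1.82%) and 2.21% (1.61% to 2.95%).

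At day 7 the 44 cells covered a wide range of myelin content. Counts over 16 genes of myelin proteins and their junctions made up 1.23 to 123 of every 1000 counts of a cell. No cell lay between 10.9 and 25.5 per 1000, and a cut of 20, chosen after these values were seen, left 24 cells above it (median 54.0) and 20 below it (median 2.35). Below, these are called myelin-rich and myelin-poor. They are ranges of 1 score and not types, and 7 of the 44 cells lay within 2-fold of the cut. The myelin-rich cells were shallower, with a median of 2303 counts and a sum of 72533, against 6081 and 145283. Of the 9 day 2 cells, which ranged from 0.355 to 23.1 per 1000 with a median of 1.97, 1 was above 20.

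**Figure D2:**
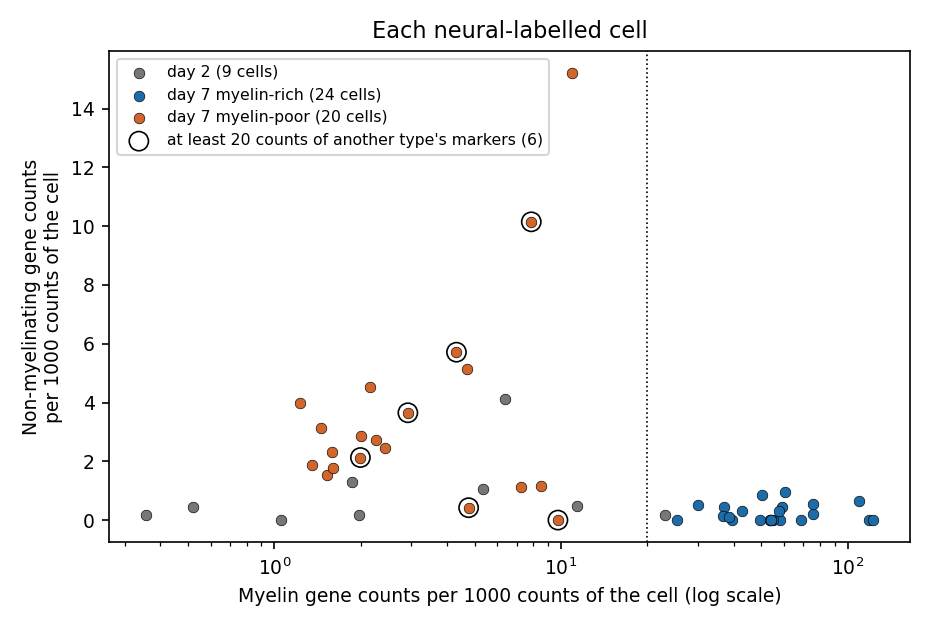
Each point is 1 Neural-labelled cell, placed by its myelin gene counts (x, log scale) and its non-myelinating gene counts (y), both per 1000 counts of the cell. The dotted line is the cut of 20, and circles mark 6 cells with at least 20 counts of another type's markers. The 24 myelin-rich day 7 cells lie at or below 0.943 on the y axis, and the myelin-poor cells reach 15.2.

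The myelin genes themselves set the split, so their values in it are a description. Mbp, myelin basic protein of the cytoplasmic face, had 8 to 97 counts per myelin-rich cell with a median of 22, and it was present in all 24. In the myelin-poor cells it had 0 to 13 counts with a median of 3, and it was in 12 of the 20. The highest myelin-poor cells thus lay within the range of the myelin-rich ones. The sums were 722 and 81 counts, or 9954 and 558 CPM (log2 ratio 4.16, 3.83 to 4.51). Pmp22, a tetraspan protein of compact myelin (chromosome 11, 63128982 to 63159547, plus strand), had 3 to 97 counts per myelin-rich cell with a median of 19 and 0 to 14 per myelin-poor cell with a median of 2.5, and its sums were 690 and 87 counts.

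The sharpest contrasts were in genes of the myelin sheath's outer and non-compact parts. Ncmap, the noncompact myelin associated protein, had 137 counts in 19 of 24 myelin-rich cells and 2 counts in 1 of 20 myelin-poor cells (log2 ratio 7.10, 5.22 to 10.16). Drp2, a dystrophin-related protein that holds periaxin at the Schwann cell surface, had 81 and 6 counts (4.76, 3.57 to 6.25). Periaxin itself, Prx, had 168 and 30 (3.49, 2.92 to 4.10). Cldn19, the claudin of the tight junctions of the paranodal loops, had 74 and 13, and Mal 191 and 32. Genes of the list with smaller ratios were Cnp, with 79 and 72 counts (1.14, 0.66 to 1.62), and Gjc3, connexin 29, with 56 and 49 (1.19, 0.62 to 1.78). Cadm4, an adhesion molecule of the internode, was at about the same level in both, with 303 and 330.4 CPM (-0.12, -0.92 to 0.63). Pmp2 was at 0 in every neural cell.

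Genes outside the myelin list are set against the background of the same comparison. Of 4145 genes with enough counts, 313 were called higher in the myelin-rich cells (7.55%) and 441 lower (10.6%), with a median log2 ratio of -0.32. The annotation and the split come from the same cells' expression, so these too are descriptions. Lipid synthesis genes stood with myelin. Of 16 listed, 10 had enough counts, 6 of those were higher, none was lower, and their median log2 ratio was 2.05. Scd2, a stearoyl-CoA desaturase abundant in myelinating glia, had 198 counts in the myelin-rich cells and 72 in the others (2.46, 2.07 to 2.87). Ugt8a, the enzyme that makes galactosylceramide, had 29 and 5, and Fa2h, which hydroxylates its fatty acid, 16 and 3. Of cholesterol synthesis genes, Hmgcs1 had 21 and 11 counts, Cyp51 had 9 and 4, and Fdps had 10 and 0, which is at least 6.68-fold higher. Cyp51 was not called without the 6 cells that held another type's markers (1.55, -0.29 to 3.70). Gal3st1, the sulfotransferase that makes sulfatide, had 8 and 23 counts with an interval that included no difference (-0.52, -1.89 to 0.69).

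Schwann transcription factors did not follow the myelin genes as a group. Of 17, 10 had enough counts, 1 was higher and 2 were lower in the myelin-rich cells, with a median log2 ratio of -0.11. Egr2 (Krox20), which drives myelination, was the 1 called higher, with 17 counts in 9 cells against 12 in 6 (1.5, 0.35 to 2.70). Its precursor in that pathway, Pou3f1 (Oct6), was at 1034 and 1211 CPM (-0.23, -0.64 to 0.17). Id2, an inhibitor of helix-loop-helix factors, and Notch1, a receptor that holds Schwann cells immature, were the 2 called lower, at 4 and 33 and at 4 and 24 counts. Sox10 was at 262 CPM in the myelin-rich and 454 CPM in the myelin-poor cells (-0.79, -1.61 to -0.04), under the 2-fold limit. Without the 6 cells that held another type's markers Notch1 was not called (-1.62, -3.66 to 0.01) and Sox10 was called lower (-1.02, -1.86 to -0.23).

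The other lineage genes differed in direction. S100b had 0 to 20 counts per myelin-rich cell with a median of 3, and 0 to 6 per myelin-poor cell with a median of 1, and its summed level was 1599 against 220.3 CPM (2.86, 2.28 to 3.47). Dhh, the desert hedgehog ligand that Schwann cells send to the perineurium, was also called higher, with 21 and 9 counts. Other genes ran the other way. Foxd3, a neural crest factor, had 8 and 75 counts (-2.23, -3.49 to -1.17), and Cdh19 had 12 and 51. In all, 5 of the 12 lineage genes were higher and 3 lower, with a median of -0.01.

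Non-myelinating genes were found almost wholly in the myelin-poor cells. At least 2 counts over the list of 15 genes were held by 3 of 24 myelin-rich cells (12.5%, 2.66% to 32.4%) and by 19 of 20 myelin-poor cells (95%, 75.1% to 99.9%), or 22 of 44 in all (50%). The myelin-poor cells were deeper, and with every cell thinned to 1000 counts the expected shares were 2.10% and 68.2%. T cells, which should lack these genes, gave 1.82% at a median depth of 3363 counts and 0.276% when thinned. The thinned share of the myelin-rich cells, which rests on 3 cells, was above that of the T cells by too little to read. Several genes of the list are not particular to glia: the list was at 428 CPM in FAPs (Adipogenic) and 418 CPM in MuSCs, and 26.5% of tenocytes, at a median of 8403 counts, held 2 or more counts (0.947% when thinned). The list's level was 234 CPM (137 to 375) in the myelin-rich and 2863 CPM (2595 to 3152) in the myelin-poor cells. All 44 cells, by contrast, held at least 2 counts over the myelin list, as did 20.9% of T cells; thinned, the share was 100% in myelin-rich cells, 73.6% in myelin-poor cells and 2.00% in T cells.

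Of the 15 genes, 12 had enough counts, 10 were called lower in the myelin-rich cells and none higher, with a median log2 ratio of -2.58. Ngfr, the p75 neurotrophin receptor (chromosome 11, 95568818 to 95587735, minus strand), had 77 counts in 10 of 20 myelin-poor cells and 0 in the 24 myelin-rich cells, which puts the latter at least 12.8-fold lower; 32.5% of its counts came from 1 cell. For a sum of 0 in those cells the floor of 3 counts stands at 41.4 CPM. Chl1, an adhesion molecule of the L1 family, had 53 counts in 13 cells and 0 (at least 8.82-fold lower). L1cam had 36 in 15 and 0 (at least 5.99-fold lower), and Ptprz1, a receptor phosphatase that binds pleiotrophin, 39 in 13 and 0 (at least 6.49-fold lower). Adam23 had 51 and 1, and Ncam1 35 and 2. Scn7a, a sodium channel-like protein of Remak cells, had 36 counts in 5 cells, 50% of them in 1 cell, and 82.4% of the 17 counts of Gfra3, an artemin co-receptor, came from 1 cell. Without the 6 cells that held another type's markers Gfra3 kept 3 counts and was not called. Sorcs1, a sorting receptor, was at 193 CPM in the myelin-rich and 138 CPM in the myelin-poor cells, in 12 and 7 cells.

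High counts of both myelin and non-myelinating transcripts met in few day 7 cells. Of the 44 day 7 cells, 19 held at least 5 non-myelinating counts and 26 at least 50 myelin counts, and 3 held both. The 3 cells with both were myelin-poor, and 1 of them was among the 6 that held another type's markers. Of the 9 day 2 cells, 4 held at least 5 non-myelinating counts, 3 at least 50 myelin counts and 2 both.

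**Figure D3:**
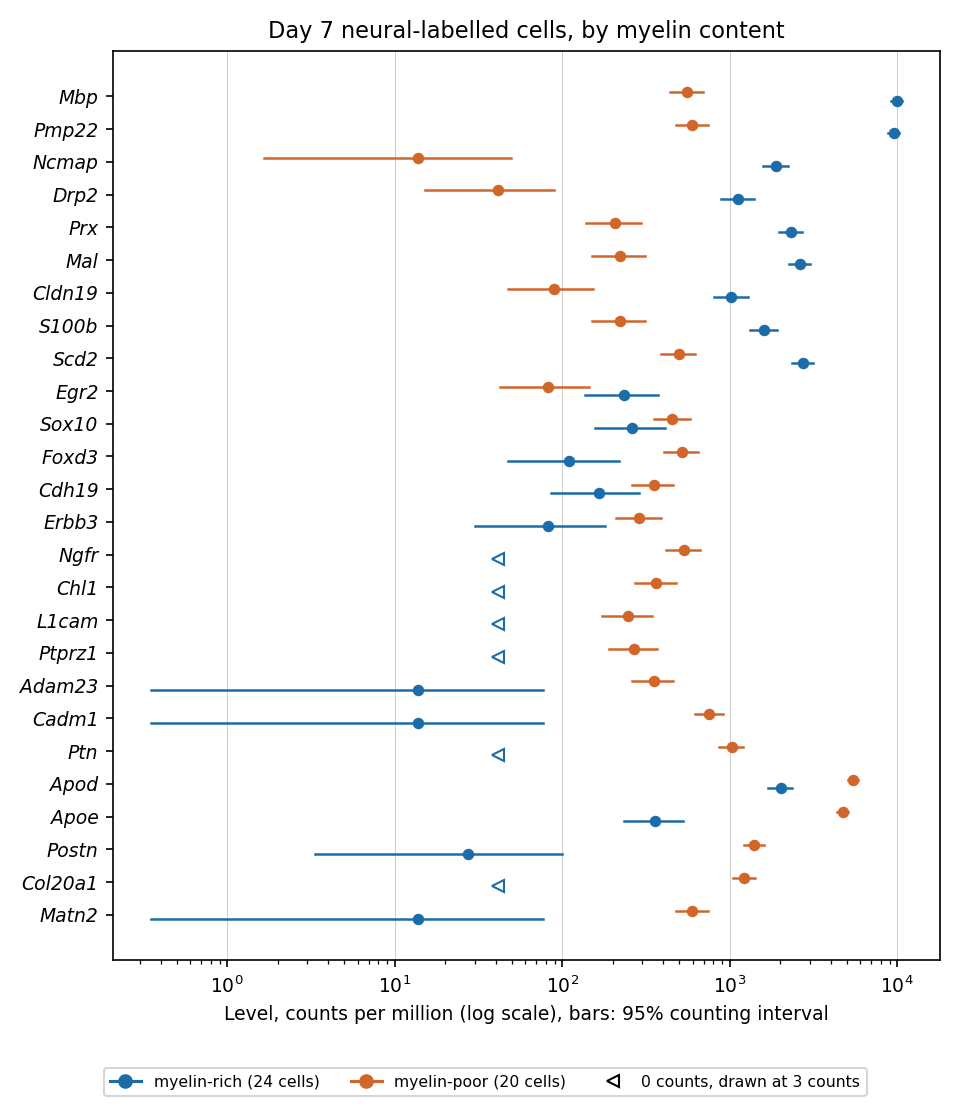
Levels of 26 genes in the summed counts of the 24 myelin-rich and 20 myelin-poor day 7 cells, in CPM on a log scale with 95% counting intervals. Open triangles are sums of 0 drawn at 3 counts (41.4 CPM). Genes of myelin lie to the right in the myelin-rich cells, and Ngfr, Chl1, L1cam, Ptprz1, Ptn and Col20a1 had 0 counts there.

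The 250 bases before the transcript start are printed for 2 genes at each end of this contrast, as the regulatory sequence next to an annotated start. The counts do not show which start was used. They are RefSeq sequences in GRCm38.p6, given 5′ to 3′ on the gene's strand, for the first entry of each gene in the table: Prx (chr7:27499074-27499323, plus strand), Ncmap (chr4:135398228-135398477, minus strand), Ngfr (chr11:95587699-95587948, minus strand) and Chl1 (chr6:103510626-103510875, plus strand). Capitals mark matches, on either strand, to the letters ACAAAG or ACAATG, bound by SOX factors, and GTGGGNG, bound by EGR factors.
Prx: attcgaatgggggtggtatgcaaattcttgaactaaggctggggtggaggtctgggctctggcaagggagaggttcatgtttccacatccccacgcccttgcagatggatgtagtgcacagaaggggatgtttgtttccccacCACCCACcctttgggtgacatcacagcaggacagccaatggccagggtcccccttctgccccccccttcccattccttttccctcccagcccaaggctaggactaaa
Ncmap: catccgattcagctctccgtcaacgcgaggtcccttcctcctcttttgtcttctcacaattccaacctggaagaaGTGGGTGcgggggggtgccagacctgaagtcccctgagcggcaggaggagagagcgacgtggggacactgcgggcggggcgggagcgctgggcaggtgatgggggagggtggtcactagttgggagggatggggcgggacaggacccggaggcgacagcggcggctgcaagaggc
Ngfr: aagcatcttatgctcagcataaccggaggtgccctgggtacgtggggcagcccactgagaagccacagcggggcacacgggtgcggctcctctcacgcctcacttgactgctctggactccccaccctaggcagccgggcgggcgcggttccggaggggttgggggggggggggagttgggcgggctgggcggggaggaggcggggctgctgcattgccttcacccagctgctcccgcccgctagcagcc
Chl1: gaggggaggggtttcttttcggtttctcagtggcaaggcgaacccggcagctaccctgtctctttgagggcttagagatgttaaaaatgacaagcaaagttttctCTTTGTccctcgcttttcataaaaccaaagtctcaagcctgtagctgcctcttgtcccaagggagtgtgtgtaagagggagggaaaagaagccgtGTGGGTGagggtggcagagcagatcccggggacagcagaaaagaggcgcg
The EGR letters were found once each in the Prx, Ncmap and Chl1 windows and not in that of Ngfr, and the SOX letters once, in Chl1. The table holds a second Ncmap start (chr4:135385673-135385922, minus strand) whose window had no match to either. Of 32851 promoter windows of this length in the table, 28.1% held the EGR letters, 25.2% a SOX match and 5.96% both, so such matches are common and these are a description of the sequences only.

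Receptors by which Schwann cells sense axons and matrix were mostly lower in the myelin-rich cells: of 17, 15 had enough counts, 8 were lower and 1 higher, with a median log2 ratio of -1.39. Erbb3, the neuregulin receptor, had 6 counts in 5 myelin-rich cells and 42 in 16 myelin-poor cells (-1.81, -3.33 to -0.56). Cadm1, an adhesion molecule, had 1 and 110 (-5.78, -11.10 to -3.27), Lgi4, a secreted regulator of myelination, 6 and 67, and Adgrg6, the adhesion G protein-coupled receptor Gpr126, 2 and 25. Ednrb, an endothelin receptor, had 1 and 53, with 52.8% of the latter in 1 cell. The 1 gene called higher was Itga6, a subunit of laminin receptors, at 524 and 255 CPM (1.04, 0.35 to 1.73), and it was under 2-fold (0.98) without the 6 cells that held another type's markers.

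Secreted factors also lay with the myelin-poor cells. Of 18, 11 had enough counts, 7 were lower in the myelin-rich cells and 1 higher, with a median of -2.21. Ptn, the growth factor pleiotrophin, had 0 to 25 counts per myelin-poor cell with a median of 6 and was found in 17 of 20, and it was at 0 in all 24 myelin-rich cells (at least 24.8-fold lower). Apod, a lipocalin released by injured nerve, was at 2013 and 5451 CPM (-1.44, -1.70 to -1.18), and Apoe, a lipoprotein that macrophages also make, at 358 and 4715 CPM. M2 macrophages of the Cx3cr1_hi type held Apoe at 50064 CPM, and near-empty droplets held it at 9534 CPM, above both. Sema3b, a semaphorin, was the 1 called higher, at 82 and 37 counts.

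Repair Schwann genes were sparse. Of 18, 7 had enough counts, 4 were lower in the myelin-rich cells and none higher, with a median of -1.58. Atf3, an injury-induced factor, had 4 and 52 counts, Tnc, the matrix protein tenascin C, 5 and 44, Mmp17, a membrane metalloprotease, 1 and 28, and Btc, betacellulin, 0 and 18. Jun, the regulator of the repair state, was at 607 and 1191 CPM (-0.97, -1.48 to -0.49), under 2-fold, and 39.9% of its myelin-poor counts came from 1 cell. Jun and Atf3 are also induced by tissue dissociation, and other day 7 barcodes held them at 1176 and 344 CPM. Shh and Nrg1 were at 0 in both libraries.

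The basal lamina list did not separate the ranges, with 2 of 16 genes higher, 3 lower and summed levels of 8079 and 7654 CPM. Within it, Lamb1, a laminin subunit, was higher at 39 and 22 counts, as was Col28a1 at 11 and 2. Col20a1, a collagen with 1.41 CPM in other day 7 barcodes, had 178 counts in 11 myelin-poor cells and 0 in the myelin-rich cells (at least 29.6-fold lower), and Matn2, matrilin 2, had 87 and 1. Among all genes, those with the largest ratios toward the myelin-poor cells, named after their values were seen, also included Postn, periostin, with 203 and 2 counts and 509 CPM in near-empty droplets, and Ccnd1, cyclin D1, with 112 in 16 cells and 0. Toward the myelin-rich cells they included the proton channel Otop1, with 33 counts in 14 cells and 0, and Mt3, a metallothionein, with 35 and 1. Proliferation genes were near 0: a list of 12 summed to 6 counts in the 44 day 7 cells and 6 in the 9 day 2 cells, with Mki67 at 0.

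All 6 cells with another type's markers were myelin-poor. Without them 14 myelin-poor cells with 94233 counts were left, and 272 genes were higher and 405 lower of 3189. In 5 lists the calls leaned the same way as before: non-myelinating genes were lower for 8 of 9, receptors for 7 of 14, secreted factors for 6 of 10 and repair genes for 6 of 7, and lipid synthesis genes were higher for 5 of 9. Of the myelin genes 13 of 15 were higher, and Gjb1, connexin 32, with 8 and 3 counts, was not called (1.79, -0.27 to 4.34, against 2.42 with the 6 cells). In the lineage list 5 genes were then higher and 5 lower, and in the basal lamina list 3 and 3, with Col3a1 added to the higher genes (1.32, 0.30 to 2.41). Called lower in the myelin-rich cells only without the 6 cells were Sox2 (-1.57, -3.01 to -0.33) and Runx2 (-1.36) of the repair list. The same held for Zeb2 (-1.03, -1.57 to -0.51) and Hspa1a (-1.19, -1.60 to -0.80). Some genes of the myelin-poor sum did come from these cells. Fabp4, a lipid carrier of capillary endothelium, had 531 counts there and 11 in the myelin-rich cells, but 74.5% of all its day 7 counts lay in 1 cell. Without the 6 cells it had 4 counts in the myelin-poor cells and was called higher in the myelin-rich ones (1.84, 0.08 to 3.94). Lyz2, a lysozyme of macrophages, had 69.7% of its 221 counts in 1 cell and was not called without the 6 cells (-0.21, -1.39 to 0.93). Endothelial genes fell out of the comparison, from 154 counts over 7 genes in 20 cells to 6 counts in 14.

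The comparison of day 7 with day 2 asks how the sampled Schwann cells differed between an early and a later stage of muscle regeneration. Over the labelled cells, 5036 genes had enough counts, 376 (7.47%) were higher at day 7 and 495 (9.83%) were lower, and the median log2 ratio was 0.15. Scaling by the median ratio in place of total counts moved that median to 0.90 and gave 1196 higher and 151 lower, so that 88.8% of called genes were higher against 43.2%. Signs near 0 thus depend on the scaling.

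Myelin genes were higher at day 7 in the labelled cells. Of 16, 15 had enough counts, 13 were higher and none lower, with a median log2 ratio of 2.67. Mbp had 0 to 14 counts per day 2 cell with a median of 1, and 0 to 97 per day 7 cell with a median of 10.5, so the ranges overlap. Its level was 334 and 3687 CPM (3.46, 2.86 to 4.15), and Ncmap had 0 and 139 counts (at least 14.0-fold higher). This result rested on which barcodes were labelled. Over the 25 and 51 barcodes of the extended glial set, of which 9 and 25 were above 20 myelin counts per 1000, the myelin list had 3 genes higher and 1 lower of 15, where 11.9% of 7309 genes were higher and 6.92% lower. The log2 ratio of its summed counts was 0.57 against 2.29, Mbp had 255 and 820 counts (1.19) and Pmp22 had 486 and 867 (0.34).

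No non-myelinating gene was called lower at day 7 on either basis. In the labelled cells 12 of 15 had enough counts and 3 were higher at day 7, with a median of 1.12, against 11 higher and none lower under median-ratio scaling. The 3 were Adam23 with 6 and 52 counts, Ptprz1 with 1 and 39 and Ncam1 with 4 and 37. Ngfr was at 364 and 354 CPM (-0.04, -0.72 to 0.68). Over the extended glial set 10 of 14 were higher and none lower, and the summed log2 ratio was 1.28 against 1.01 in the labelled cells. Ptprz1 had 14 and 109 counts there, Adam23 14 and 100, and Ngfr 64 and 79.

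Of the repair list, 10 of 18 genes had enough counts in the labelled cells. Mmp17 was higher at day 7, with 2 and 29 counts, and 3 were lower. Gdnf, the glial cell line-derived neurotrophic factor, had 13 counts in 4 of 9 cells at day 2 and 5 in 4 of 44 at day 7 (-3.10, -4.94 to -1.52). Ucn2, the peptide urocortin 2, had 19 in 3 cells and 1 (-5.97, -11.35 to -3.32), and Runx2, a transcription factor, had 9 and 10. Over the extended glial set these 3 were lower as well, with 49 and 5, 20 and 1, and 25 and 11 counts. Jun was at 956 and 996 CPM and Sox2 at 212 and 161 CPM, with intervals that included no difference. Sox2 was called higher over the extended glial set, with 18 and 56 counts (1.14, 0.35 to 1.99), where the list had 2 genes higher and 4 lower of 12. Gfra1, the co-receptor for GDNF, was lower at 653 and 229.6 CPM (-1.51, -2.12 to -0.88), as was the laminin receptor subunit Itga7 at 18 and 11 counts. Nes, the filament protein nestin, was in all 9 day 2 cells and 26 of 44 day 7 cells, at 1108 and 308 CPM (-1.85, -2.35 to -1.35). Gfra1, with 176 and 56 counts, Itga7, with 47 and 11, and Nes, with 231 and 85, were lower over the extended glial set too. Under median-ratio scaling Runx2 (-0.82, -2.27 to 0.66) and Gfra1 were under 2-fold, and 2 repair genes were called lower. Without the deepest cell of each library 1 repair gene was lower and 2 were higher, and 1 non-myelinating gene was higher.

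**Figure D4:**
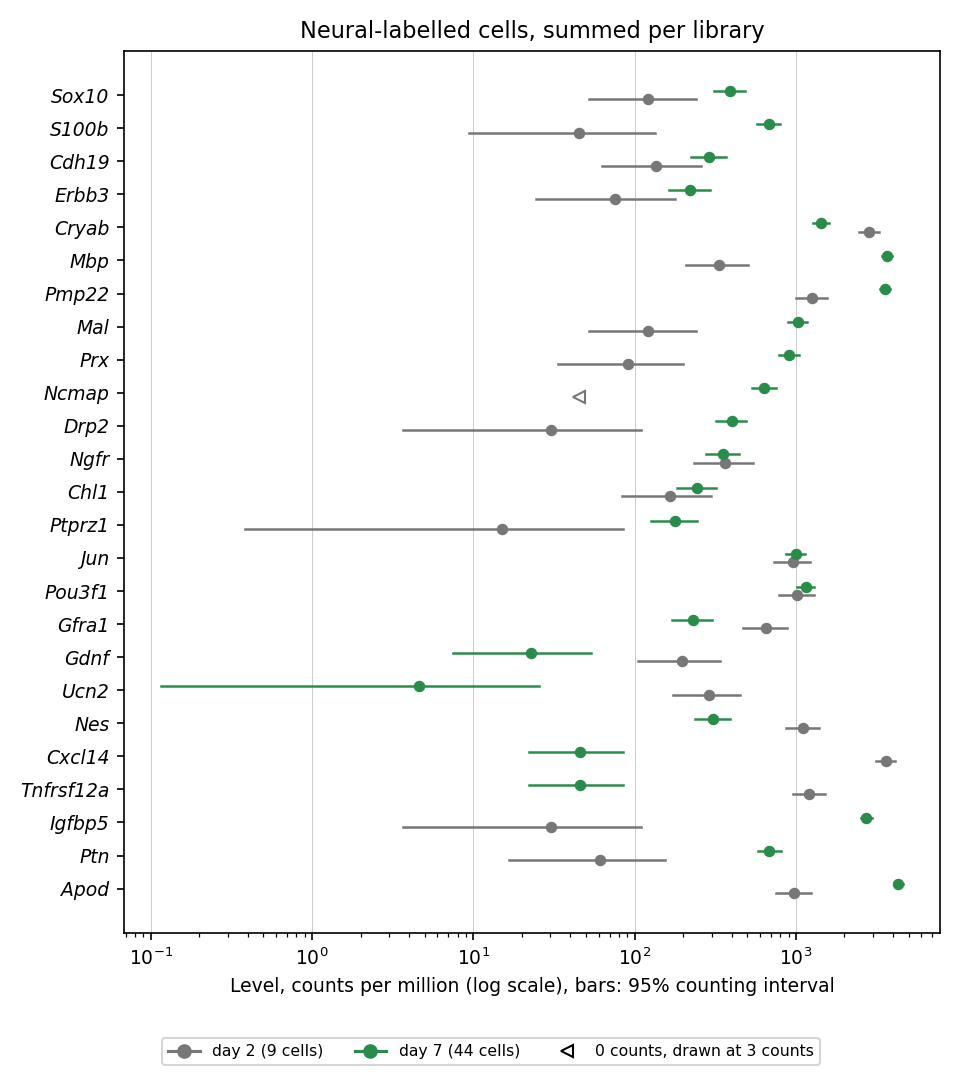
Levels of 25 genes in the summed counts of the 9 day 2 and 44 day 7 Neural-labelled cells, in CPM on a log scale with 95% counting intervals. The triangle is a sum of 0 drawn at 3 counts. Cxcl14 lies at 3597 CPM at day 2 and 45.9 CPM at day 7, and Ngfr, Jun and Pou3f1 lie close together.

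The genes with the largest ratios were of several kinds. Cxcl14, a chemokine, had 0 to 79 counts per day 2 cell with a median of 23, and 10 counts in 6 of 44 day 7 cells (-6.29, -7.37 to -5.39). Over the extended glial set it had 1114 and 13. Tnfrsf12a, the TWEAK receptor, had 80 and 10 counts, Timp1, a metalloprotease inhibitor, 56 and 12, Nme1, a nucleoside diphosphate kinase, 64 and 18, and Cd44, the hyaluronan receptor, 66 and 26, and these were lower over the extended glial set too. Lgals3, galectin 3, had 107 counts in 3 of 9 day 2 cells and 46 in 15 at day 7. Fgl2, a fibrinogen-like protein, and Emp1, a membrane protein related to Pmp22, with 32 and 10 and with 55 and 19 counts, were no longer called over the extended glial set. Near-empty droplets held Lgals3 at 1174 CPM at day 2 and 755 CPM at day 7, and Cxcl14 at 310.4 and 406 CPM.

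Toward day 7, Igfbp5, an insulin-like growth factor binding protein, had 2 and 596 counts (6.49, 4.63 to 9.54), in 28 of 44 cells. Fxyd6, a regulator of the sodium pump, had 1 and 138 counts, which is a log2 ratio of 5.38 with an interval of 2.88 to 10.70, Ckb, the brain-type creatine kinase, 3 and 148, and S100b also 3 and 148. Over the extended glial set Igfbp5, with 25 and 603 counts (4.09), Fxyd6, with 26 and 148 (2.01), and Ckb, with 47 and 227 (1.77), were still called higher, with smaller ratios. S100b had 38 and 190 counts there (1.82). It is 1 of the 4 genes on which that set was selected, so its value there is a description. Igfbp7 and Fabp4 had 146 and 542 counts against 0, with 52.7% and 74.5% of them in 1 cell. Of the secreted factors, 6 of 11 were higher, namely Apod, Apoe, Ptn, Metrn, Nrn1 and Sema3e, and none was lower, with a median of 2.08. Nrn1 was not called over the extended glial set, with 24 and 56 counts. Near-empty droplets also differed between the days, at 713 and 9534 CPM for Apoe and 26.5 and 337 CPM for Apod, and their part in the result was not tested. Ptn had 4 and 149 counts (3.49, 2.11 to 5.39), and 30 and 279 over the extended glial set. Myofibre genes, which these cells are not known to make, were higher for 5 of 6 tested, with 0 and 544 counts over the list, and their part in the result was not tested. Of the stress list, Hspa1a had 10 and 342 counts and Fosb 41 and 36, so dissociation-related genes did not move 1 way.

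Lineage genes were higher for 10 of 12 at day 7 in the labelled cells, with a median of 1.61, and for 5 over the extended glial set, where Cryab, with 745 and 400 counts, was lower. That set was selected on 4 genes of this list, so its lineage values are a description. Transcription factors were mostly not called: 2 of 10 were higher, Zeb2 with 24 and 208 counts and Id2 with 2 and 37, of which Zeb2 was not called over the extended glial set (110 and 307, 0.98), and Pou3f1 was at 1017 and 1152 CPM (0.18, -0.21 to 0.59). Of lipid synthesis genes, 1 of 11 was higher in the labelled cells, Scd2 with 25 and 270 counts. Over the extended glial set 1 of 15 was higher and 4 were lower, and Scd2, with 207 and 320, was not called.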

How the data were processed

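The authors deposited whole-number counts of unique molecular identifiers per gene and barcode for called barcodes and for every barcode, SoupX-corrected values, which are expected counts that need not be whole, and a table with a cell type for annotated barcodes. The matrix headers name Cell Ranger 3.0.1, the submitters' processing notes Cell Ranger 3.1.0 and Seurat 3.1.5, and the reference was mm10 with 27998 genes, of which 27645 were matched to GENCODE vM21 for coordinates. Per the study's methods, doublets were removed before annotation, and no doublet caller was run here. Library totals over called barcodes were 41123913 counts at day 2 and 32356088 at day 7.

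Neural barcodes of the table were matched to the called barcodes of the same library and their uncorrected counts were summed (Python 3.11.15, numpy 2.4.6, scipy 1.17.1, pandas 2.3.3, matplotlib 3.10.9). Shares have exact Clopper-Pearson intervals, sums exact Poisson intervals, ratios exact conditional binomial intervals and differences of shares square-and-add intervals, all at 95%. With 1 library per time point no p-value was computed. Free RNA was read from barcodes of 1 to 100 counts. Thinned shares are exact expectations for 1000 counts drawn without replacement. The call rule was tested on simulated counts. The columns of each library's own files were used, and no authors' comparison was.

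The members and the 24 gene lists were chosen with earlier results of these data known. Named genes are members of the lists, up to 8 with the most day 7 counts each and those at 0; the 8 largest and 8 smallest day 7 to day 2 ratios among genes with at least 30 counts in 1 library and in at least 20% of its members; and the 15 largest ratios to other day 7 barcodes among genes with at least 50 counts and detected in at least 20% of the day 7 members. Mitochondrial, ribosomal protein, haemoglobin and myofibre genes were left out of both rankings. Other genes were named after their values were seen. Promoters came from the RefSeq table. Alternatives were SoupX values, a mean over cells, other scalings, the study's limits, stricter or no count filters, leaving out the deepest member, and, chosen after seeing the data, leaving out cells with another type's markers and using the extended glial set in place of the labelled cells. Some genes of the lists are not reported here.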

Additional observations from a re-analysis of the deposited data

Results flagged for a closer look

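Glial barcodes outside the annotation table were a signal in data that the labelled comparisons do not use. They numbered 20 at day 2 and 9 at day 7, of 1299 and 1473 called barcodes not in the table, or 1.54% (0.943% to 2.37%) and 0.611% (0.280% to 1.16%). Another type's markers, at 20 counts or more, were held by 1 and 4 of them. At day 7 a few of these 9 barcodes brought proliferation genes into the comparison over the extended glial set. Mki67 had 42 counts in 3 barcodes and Cenpf 78 in 3 at day 7 there, against 0 in the labelled cells. Why they are not in the table was not tested.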

How the results depend on the processing

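No paired analysis was possible because each time point has 1 library. Under median-ratio scaling, 1196 genes were higher and 151 lower at day 7, the summed log2 ratios were 3.05 for myelin, 1.77 for non-myelinating and 1.63 for lineage genes, and that of repair genes turned from -0.43 to 0.32. Without the deepest cell of each library they were 2.09 for myelin, -0.12 for repair and 1.08 for lineage genes. With genes of at least 50 counts only, so that fewer were tested, 170 were higher and 152 lower. Without the cells that held another type's markers, myelin was at 2.61, lineage at 1.05 and the lineage list against near-empty droplets at 5.37 (5.19 with all cells). Over the extended glial set, 873 genes were higher, myelin was at 0.57 and lineage, on which the set was selected in part, at 0.29, and the share differed by 0.526 points. A mean over cells gave 2.57 for myelin. The day 7 shares were 88.0% (myelin) and 32.1% (non-myelinating) when thinned, and 70.5% for at least 1 non-myelinating count. Droplets of 1 to 10 counts as free RNA gave 5.47. Of 693 day 7 to day 2 values of 77 named genes under the alternatives, 621 stayed within the main interval and 72 moved. Signs could change over the extended glial set, also for a called gene. Fxyd3, among the genes with the largest ratios to other day 7 barcodes, was called higher in the labelled cells with 8 and 157 counts (2.57). Over the extended glial set it had 214 and 166 counts (-0.86, -1.17 to -0.57). Of uncalled genes, Sox2 changed sign there (1.14). Causes were not tested. Depth limits the 9 day 2 cells most, where the floor of 3 counts stands at 45.5 CPM against 13.8 CPM at day 7.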
